A study of Mus musculus with 4 samples.

Results

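Naive CD8 T cells of tumour-draining lymph nodes were described by raw counts of unique molecular identifiers (UMIs) in single cells. A barcode was taken as a naive CD8 T cell when it carried Cd3e, a chain of the T cell receptor complex, and Cd8b1, the CD8 beta chain, and had no UMI of Cd4, of the B cell gene Cd79a, of the division gene Mki67 or of the chemokine Ccl5. It also had to show fewer than 3 of 6 memory genes (Il2rb, Klrk1, Klra7, Klre1, Gzmm and Samd3) and fewer than 3 of 5 early genes of receptor stimulation (Nr4a1, Egr2, Egr3, Nfkbid and Hivep3). The matrix held 30824 barcodes, of which 26096 had 300 or more genes and no more than 10% mitochondrial UMIs, and 4856 of these met the gate. The cells were chosen by their UMIs of these genes, whose levels are therefore no finding.

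The cells came from inguinal nodes of 4 C57BL/6J mice, whose age and sex the labels do not give, bearing B16F10 tumours, a transplantable mouse melanoma line, in both thighs. The treated group held 2 mice that drank 2 mg/ml indoximod, an inhibitor of the IDO pathway of tryptophan breakdown, from day 9. Also from day 9, they received 350 ug of the BTK inhibitor ibrutinib daily by injection. On day 10 they received 150 mg/kg of the alkylating drug cyclophosphamide. The control group held 2 mice that carried the same tumours and had no treatment. Nodes of both groups were taken 48 hours after the cyclophosphamide day. The barcodes carry a library number from 1 to 4, and nothing ties a number to a mouse or a group, so treated and control mice are not compared. Libraries are described one by one, and the spread between them holds treatment, mouse and preparation together. No p-value is given, as no library has a known group.

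A naive CD8 T cell has left the thymus and has not yet met the peptide that its receptor fits. It recognises peptides on MHC class I molecules, moves between blood and lymph nodes with the help of the chemokine receptor CCR7, and is kept at rest by transcription factors such as KLF2 and LEF1. When dendritic cells of a node that drains a tumour present a fitting peptide, such cells divide and become killer or memory cells. Type I interferon, made by infected cells, dendritic cells and other sources, switches on a set of antiviral genes in resting T cells without need of the receptor.

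The labels give approximately 2000 cells per sample, while libraries 1, 2, 3 and 4 held 7002, 6978, 7013 and 9831 barcodes. Total counts lay between 39589629 and 53643414 UMIs per library. Of the barcode sequences, 86 occurred in more than 1 library. Among naive CD8 cells 30 such sequences were found, and 2 of them were naive CD8 cells in 2 libraries. Scrublet, a doublet caller, marked 900 of the 26096 kept barcodes and 39 of the 4856 naive CD8 cells, which were kept. Intervals are exact at 95% and cover counting error only.

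Naive CD8 cells made up a similar part of each node. They numbered 1018, 1098, 1312 and 1428 in libraries 1 to 4, which was 17.96% (16.97% to 18.99%), 19.07% (18.06% to 20.11%), 20.71% (19.72% to 21.73%) and 17.13% (16.33% to 17.96%) of the kept barcodes. The share was highest in library 3 and lowest in library 4, and the intervals of these 2 libraries did not overlap. Naive CD8 cells were 64.8%, 66.3%, 69.9% and 60.3% of the kept barcodes with Cd3e and Cd8b1. For each cell that passed the naive CD4 gate there were 2.30, 2.68, 2.33 and 2.45 naive CD8 cells in libraries 1 to 4. The naive CD4 gate required Cd4 and had limits on Cd8a, Foxp3 and genes of helper subsets that the naive CD8 gate lacked. The ratio is therefore of gated cells and does not give the balance of naive CD8 and CD4 cells in the node. How much the gates add to it was not tested. Most cells that the naive CD8 gate turned away after the CD8 and CD4 steps carried Cd79a, which removed 812 cells, or Ccl5, which removed 1027. The median naive CD8 cell held 6869.5 UMIs, against 5743 in naive CD4 cells, 3901 in B cells and 10690 in memory-like CD8 cells.

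The naive CD8 cells of 2 libraries held a set of cells that stood apart. Ddx3y, Eif2s3y, Kdm5d and Uty lie on the Y chromosome, which males alone carry, and Xist is the RNA of the silenced X chromosome of females. At least 1 UMI of these Y-linked genes was found in 0 of 1018 naive CD8 cells of library 1 and 0 of 1098 of library 2. The exact intervals of these shares reach up to 0.362% and 0.335%. The same genes were found in 139 of 1312 cells of library 3, or 10.6% (8.98% to 12.4%), and in 140 of 1428 cells of library 4, or 9.80% (8.31% to 11.5%). Xist was found in 83.9%, 83.4%, 67.5% and 68.0% of the naive CD8 cells of libraries 1 to 4. Of the cells with a Y-linked UMI, 11 in library 3 and 18 in library 4 also held Xist, or 7.91% and 12.9%.

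The Y-linked cells were found among other T cells of the same libraries too. Naive CD4 cells held a Y-linked UMI in 0, 0, 73 and 66 cells, the last 2 being 12.9% and 11.3% of their class in libraries 3 and 4. B cells did so in 0.148% of cells in library 1, in none of 2006 in library 2, in 1.21% in library 3 and in 1.66% in library 4. Of these B cells, 2 of 3, 13 of 25 and 20 of 47 in libraries 1, 3 and 4 also held Xist. The last 2 shares were 52.0% and 42.6%, against 4.11% and 6.06% of the naive CD4 cells with a Y-linked UMI. Memory-like CD8 cells did so in 0 of 40 cells in library 3 and 2 of 69 in library 4. The labels name 4 mice and 1 strain, and where these cells came from was not tested.

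Naive CD8 cells with a Y-linked UMI also differed from the Xist cells of their own library in autosomal genes, which played no part in the choice of the sets. These genes were chosen after their values were seen. Gdpd3, a phosphodiesterase gene of lipid metabolism on chromosome 7, stood at 154 and 113 counts per 1000000 UMIs (CPM) in the Y-linked cells of libraries 3 and 4, against 2.45 and 1.45 CPM in the Xist cells. The long noncoding RNA Gm35082 stood at 46.7 and 60.4 CPM in Y-linked cells, against 0.460 and 0.145 CPM in Xist cells. In the other direction, Trim12a, a relative of the antiviral gene Trim5, stood at 22.3 and 21.9 CPM in Y-linked cells, against 165 and 161 CPM in Xist cells. No library's Y-linked value came near its Xist value for these 3 genes.

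Members of the Ifi200 family, DNA sensors and their relatives that lie side by side on chromosome 1, moved in both directions. Ifi204 stood at 27.4 and 23.9 CPM in the Y-linked cells of libraries 3 and 4, against 0.613 and 0.579 CPM in the Xist cells. Ifi213 stood at 16.2 and 13.5 CPM in Y-linked cells, against 102 and 93.3 CPM in Xist cells. Ifi206 stood at 38.6 and 42.7 CPM in Y-linked cells, against 154 and 163 CPM in Xist cells. These genes are close relatives, and reads may be split between them. Of 2283 genes with at least 50 CPM in a set, 9 (0.394%) were at least 2-fold higher in the Y-linked cells of libraries 3 and 4 and 6 (0.263%) were at least 2-fold lower, after 10 CPM was added to both values. Naive CD4 cells had the same direction for Gdpd3, with 159 and 93.9 CPM in Y-linked cells against 1.76 and 3.82 CPM in Xist cells.

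Cells with neither Xist nor a Y-linked UMI took in-between values in libraries 3 and 4 and not in libraries 1 and 2. Their Gdpd3 stood at 1.80, 1.75, 69.6 and 51.7 CPM in libraries 1 to 4. Genes of the naive CD8 state were close between the sets. Lef1 stood at 371 and 344 CPM in the Y-linked cells of libraries 3 and 4, against 396 and 381 CPM in their Xist cells, and Dapl1 at 602 and 666 CPM, against 644 and 600 CPM. Nkg7 stood at 589 and 532 CPM in Y-linked cells, against 505 and 500 CPM in Xist cells. Median depths were 6754 and 6444.5 UMIs in Y-linked cells, against 7076 and 7004 in Xist cells. Genes named below that are called with these cells and not without them are pointed out.

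**Figure D1:**
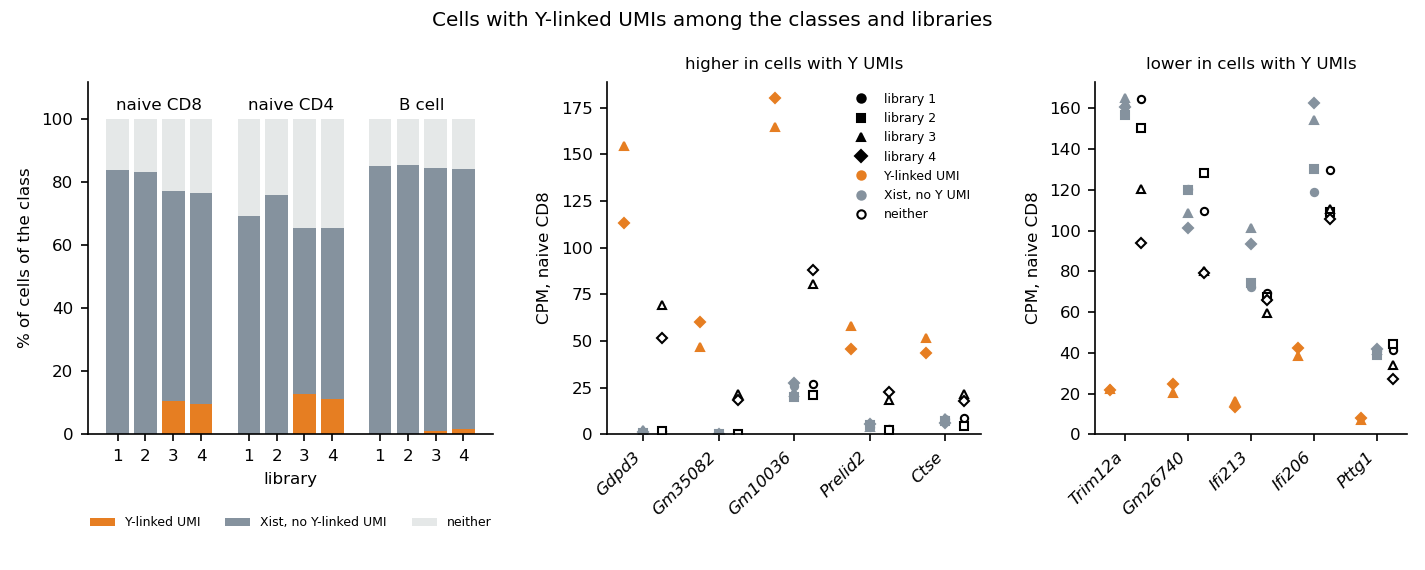
Share of cells with a Y-linked UMI, with Xist and no Y-linked UMI, or with neither, by class and library (left, stacked bars), and CPM of 5 higher and 5 lower genes in these sets of naive CD8 cells, 1 symbol per library (middle and right). Y-linked cells appear in libraries 3 and 4 alone among naive CD8 cells, at 10.6% and 9.80%, and their Gdpd3 and Trim12a values lie far from those of the Xist cells.

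Markers of naive CD8 T cells that the gate did not use were found in the gated cells. To set shares of cells side by side, each cell was thinned to 1500 UMIs, which left out 2 naive CD8 cells. Cd8a was found in 44.3% of the thinned naive CD8 cells (86.3% unthinned), against 0.508% of B cells (1.52%). Lef1, a transcription factor of resting T cells, was found in 42.3% (88.4%), against 54.3% of naive CD4 cells (91.7%) and 1.48% of B cells (3.85%). Dapl1, whose RNA marks naive T cells, was found in 44.3% (64.2%), against 30.4% of naive CD4 cells (48.4%), 10.5% of memory-like CD8 cells (27.3%) and 0.881% of B cells (2.47%). Ccr9, the receptor for the gut and thymus chemokine CCL25, was found in 14.4% (39.6%), against 0.551% of naive CD4 cells (2.10%), 1.44% of memory-like cells (6.22%) and 0.429% of B cells (0.973%). The 5 markers summed to 2574, 2529, 2586 and 2471 CPM in naive CD8 cells of libraries 1 to 4, and to between 858 and 1012 CPM in naive CD4 cells, whose gate set Cd8a and Cd8b1 at 0. Cd8b1, which the gate required, gave 1001, 1015, 1047 and 987 CPM of the sums in naive CD8 cells.

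Markers of other cells were low but present. The 6 B cell markers summed to 436, 421, 326 and 355 CPM in naive CD8 cells of libraries 1 to 4, against 22834 to 23795 CPM in B cells. Ighm, the heavy chain of IgM antibody, was found in 28.1% of thinned naive CD8 cells (72.8% unthinned), 25.1% of naive CD4 cells (61.5%) and 91.0% of B cells (97.7%), a like share in both T cell classes. The 5 NK cell markers summed to between 17.8 and 43.1 CPM with Ncr1 at 0. The 4 markers of invariant T cells summed to between 0.506 and 1.07 CPM with the single segment Trav11 at 0. The Trav11 family of 3 segments had 6 UMIs in naive CD8 cells. The 5 melanoma markers summed to between 0.669 and 3.29 CPM with Mlana at 0. Globin and other erythroid RNA summed to 243, 1240, 11.6 and 31.2 CPM in libraries 1 to 4. Its part in the differences between libraries was not tested.

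Levels of several genes shifted on both sides of the edge of the gate. Among members, 3606 had none of the 6 memory genes, 1161 had 1 and 89 had 2. Ly6c2, a surface protein of memory CD8 cells and of some naive ones, stood at 271, 397 and 870 CPM in these 3 sets. Cxcr3, a receptor that guides T cells to inflamed tissue, stood at 7.02, 16.8 and 50.7 CPM, and Ccr9 at 114, 90.9 and 62.8 CPM. Dapl1 had no steady order in these sets, at 587, 715 and 596 CPM. Their median depths rose too, at 6667, 7547 and 8604 UMIs. Just outside, 383 cells had a single Ccl5 UMI, with Ly6c2 at 532 CPM, Ccr9 at 72.8 CPM and Dapl1 at 646 CPM. Cells with 2 or more Ccl5 UMIs, 433 in number, had Ly6c2 at 1332 CPM, Ccr9 at 23.5 CPM and Dapl1 at 515 CPM. The gated memory-like class of 209 cells had 1686, 12.2 and 160 CPM of the same 3 genes. Along the early genes, Cd69, an activation marker that holds cells in the node, stood at 117 CPM in the 4063 members with none of the 5 genes and 525 CPM in the 114 with 2. It stood at 1078 CPM in the 32 cells with 3 early genes just outside. The rule chose the sets by these genes, so the values are a description.

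**Figure D2:**
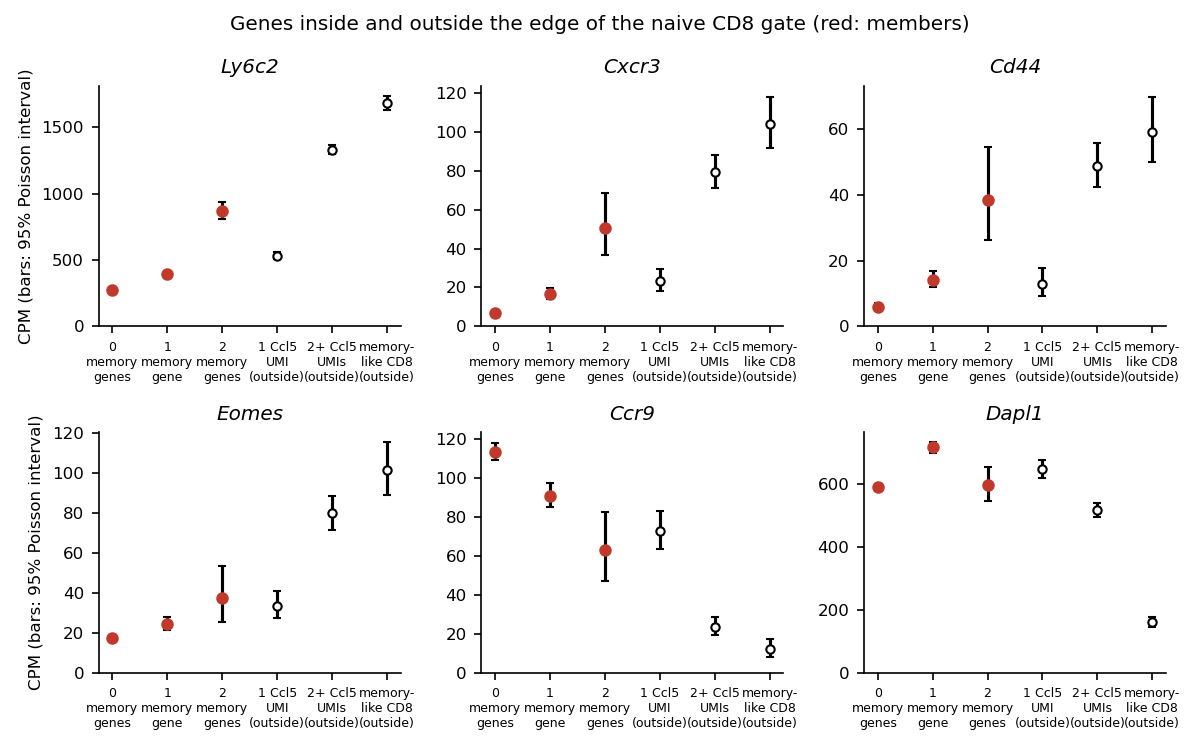
CPM of 6 genes in members with 0, 1 or 2 memory genes (red) and in cells outside the gate (open), with exact Poisson intervals. Ly6c2 is 271, 397 and 870 CPM along the members and 1686 CPM in memory-like CD8 cells, and Ccr9 runs the other way.

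Naive CD8 cells were set against naive CD4 cells of the same library to show what the CD8 class carries beyond its coreceptor. The 1999 naive CD4 cells had the same filters, Foxp3 at 0 and fewer than 2 of 6 genes of helper subsets. A gene was called when its CPM ratio was 1.5-fold or more, one way, in each library that held 10 or more counts of it, and 3 or more libraries held as many. Of 10455 genes, 278 were higher in naive CD8 cells (2.66%) and 207 were lower (1.98%), a rule of size and not a significance test. The log2 values below are ratios of CPM summed over libraries after 1 count was added. Without the Y-linked cells 476 genes were called in all, against 485 with them. When cells with a UMI of the B cell genes Cd79b, Ms4a1 or Ighm were left out, 1089 naive CD8 cells and 252 called genes were left, and among the genes named below Xcl1, Haao, Gbp3, H2-Q6, Oas2 and Ifi44 fell short of the rule. After thinning each cell to 1500 UMIs 270 genes were called, and Xcl1, Mx1, Gbp3, Oas2 and Ifi44 fell short. In cells with none of the memory and early genes 418 were called, and Xcl1, Gbp3, Oas2 and Ifi44 fell short.

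Genes of killing and memory were the group with the most calls. Of 20 tested genes of memory and virtual memory CD8 cells, 10 were higher in naive CD8 cells and 2 were lower, and of 10 tested cytotoxic genes, 4 were higher and 1 was lower. Their median log2 ratios were 0.94 and 0.46, where that of all tested genes was -0.09. Nkg7, a granule membrane protein that killer cells need to release their granules (chr7:43437073-43438249, plus strand), stood at 461, 466, 507 and 500 CPM in naive CD8 cells of libraries 1 to 4. Naive CD4 cells had 4.39, 1.61, 1.26 and 3.64 CPM, a log2 ratio of 7.30, and no library overlapped. Ly6c2 (chr15:75108158-75111970, minus strand) stood at 281, 297, 348 and 336 CPM in naive CD8 cells, against 7.32, 5.65, 20.8 and 6.06 CPM in naive CD4 cells (log2 4.94). Cst7, the granule protease inhibitor cystatin F, stood at 71.6, 76.8, 89.99 and 81.3 CPM, against 12.1, 13.3, 11.1 and 11.5 CPM in naive CD4 cells (log2 2.70).

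A pair of near-identical Ly6C genes split by lineage. Ly6c1 (chr15:75044018-75048830, minus strand) stood at 5.22, 6.45, 7.92 and 9.10 CPM in naive CD8 cells, against 155, 132, 156 and 143 CPM in naive CD4 cells, a log2 ratio of -4.33. Ly6c2 had the opposite order in every library. Both genes share much of their sequence, so the counting may have split reads between them. Their levels did not overlap between the classes.

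Some receptors and a chemokine were called at low levels. Cxcr3 stood at 8.83, 11.9, 11.02 and 10.7 CPM in naive CD8 cells, against 0.366, 1.61, 0.316 and 1.21 CPM in naive CD4 cells (log2 3.13). Cd160, a receptor of killer lymphocytes for HVEM, stood at 17.8, 18.6, 21.1 and 22.2 CPM, against 3.29, 1.61, 1.58 and 1.52 CPM in naive CD4 cells (log2 3.09). Xcl1, the chemokine that draws type 1 dendritic cells, stood at 2.54, 8.22, 10.8 and 16.3 CPM in naive CD8 cells of libraries 1 to 4, with 346 counts in all against 3 in naive CD4 cells. Library 1 was the lowest for Xcl1 and library 4 the highest. The gate had removed cells with Ccl5 or with 3 memory genes from both classes.

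Homing genes held 3 of 17 higher and 1 lower. Ccr9 (chr9:123678439-123784330, plus strand) stood at 121, 115, 102 and 92.5 CPM in naive CD8 cells, against 4.39, 4.84, 5.37 and 3.94 CPM in naive CD4 cells (log2 4.43). Itgae, the alpha chain of the integrin CD103 that binds E-cadherin of epithelia (chr11:73090583-73147446, plus strand), stood at 46.0, 45.04, 37.8 and 34.4 CPM, against 0.732, 1.21, 0 and 0.909 CPM in naive CD4 cells (log2 5.27). At 1500 UMIs, Itgae was found in 5.60% of naive CD8 cells, against 0.200% of naive CD4 cells and 0.0904% of B cells. Gpr183, an oxysterol receptor, was the homing gene that was lower. Ccr7, the receptor that guides cells into the node, did not pass the rule. It stood at 220, 213, 219 and 209.6 CPM in naive CD8 cells, against 233, 251, 271 and 283 CPM in naive CD4 cells (log2 -0.27), and the classes did not overlap.

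Lineage lists were called in few genes for CD8 and in more for CD4. Runx3, the transcription factor that silences Cd4 in CD8 cells, stood at 178, 154, 154 and 154 CPM in naive CD8 cells, against 46.8, 50.03, 45.8 and 52.7 CPM in naive CD4 cells (log2 1.70), and was the 1 of 7 tested CD8 lineage regulators that was higher. None was lower, and the median log2 ratio of these 7 was -0.40. Of 8 tested CD4 lineage genes, 4 were lower and none was higher. Zbtb7b, the gene of ThPOK, which directs CD4 fate, stood at 1.61, 2.53, 2.25 and 1.92 CPM in naive CD8 cells, against 44.3, 36.7, 31.9 and 36.4 CPM in naive CD4 cells (log2 -4.10). Cd40lg, the ligand by which helper T cells license B cells and dendritic cells, stood at 2.94, 4.55, 2.35 and 5.66 CPM, against 89.99, 71.8, 81.8 and 67.0 CPM in naive CD4 cells (log2 -4.29). Gata3 and Tbc1d4 were the other two that were lower.

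Genes of receptor signalling were mostly shared. Of 24 tested, none was higher in naive CD8 cells and 2 were lower. Cd28, the costimulatory receptor, stood at 79.8, 76.0, 69.1 and 71.0 CPM, against 190, 197, 163 and 169 CPM in naive CD4 cells (log2 -1.28). Cd5, a damper of receptor signals, stood at 71.2, 69.3, 75.0 and 74.9 CPM, against 149, 155, 158 and 149 CPM in naive CD4 cells (log2 -1.07). Txk, a kinase of the family to which the ibrutinib target BTK belongs, did not pass the rule. It stood at 235, 204, 209 and 214 CPM in naive CD8 cells, against 233, 250.2, 229.6 and 242 CPM in naive CD4 cells (log2 -0.15), and the classes overlapped. Btk itself had 35 counts over all naive CD8 cells and was too low to test.

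The naive and quiescence genes held 1 lower and none higher of 23. Igfbp4, which binds insulin-like growth factors, stood at 135, 129, 129 and 143 CPM in naive CD8 cells, against 332, 362, 385 and 404 CPM in naive CD4 cells (log2 -1.47). Dapl1 (chr2:59484653-59505020, plus strand) stood at 640, 618, 630 and 601 CPM in naive CD8 cells, against 327, 417, 370 and 390 CPM in naive CD4 cells. It was higher in every library at a log2 ratio of 0.73, but missed the rule because 1 library had a ratio under 1.5-fold. Lef1 had a log2 ratio of -0.49, Klf2 of 0.14 and Il7r, a receptor for the survival cytokine IL-7, of -0.20.

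Several of the largest ratios fell on genes with no clear role in T cells. Adgrg5, an adhesion G protein-coupled receptor, stood at 23.6, 25.6, 25.1 and 26.0 CPM in naive CD8 cells and had 870 counts there, against 2 in naive CD4 cells. Slc6a19, a transporter of neutral amino acids known from gut and kidney, stood at 12.8, 16.8, 10.9 and 10.9 CPM and had 439 counts, against 1. Kcnc1, a potassium channel, had 360 counts against 1, and the unnamed transcripts Gm43698 and Gm44175 had 1260 and 812 counts, against 3 each. Gm44175 (chr6:71354351-71360829, minus strand) lies between Cd8b1 and Cd8a, which the naive CD4 gate set at 0. Whether its ratio stands apart from the choice of the cells was not tested. Haao, an enzyme of the kynurenine pathway that follows IDO in tryptophan breakdown, stood at 9.23, 8.73, 6.21 and 7.48 CPM, against 0.732, 0.807, 0 and 0.909 CPM in naive CD4 cells (log2 3.07). Haao was the 1 of 8 tested genes of its list that was higher, and none was lower.

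Most other lists were called at a low count. Mx1 was the 1 of 43 type I interferon genes that was higher, with Oas2 and Ifi44 lower, and Gbp3 was the 1 of 19 interferon-gamma genes that was higher. Oas2, Ifi44 and Gbp3 were not called without the Y-linked cells. No gene of 11 early genes, 20 oxidative phosphorylation genes or 13 S phase genes was called. H2-Q6 was the 1 of 19 MHC class I genes that was higher, and it has close relatives among which reads may be split.

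**Figure D3:**
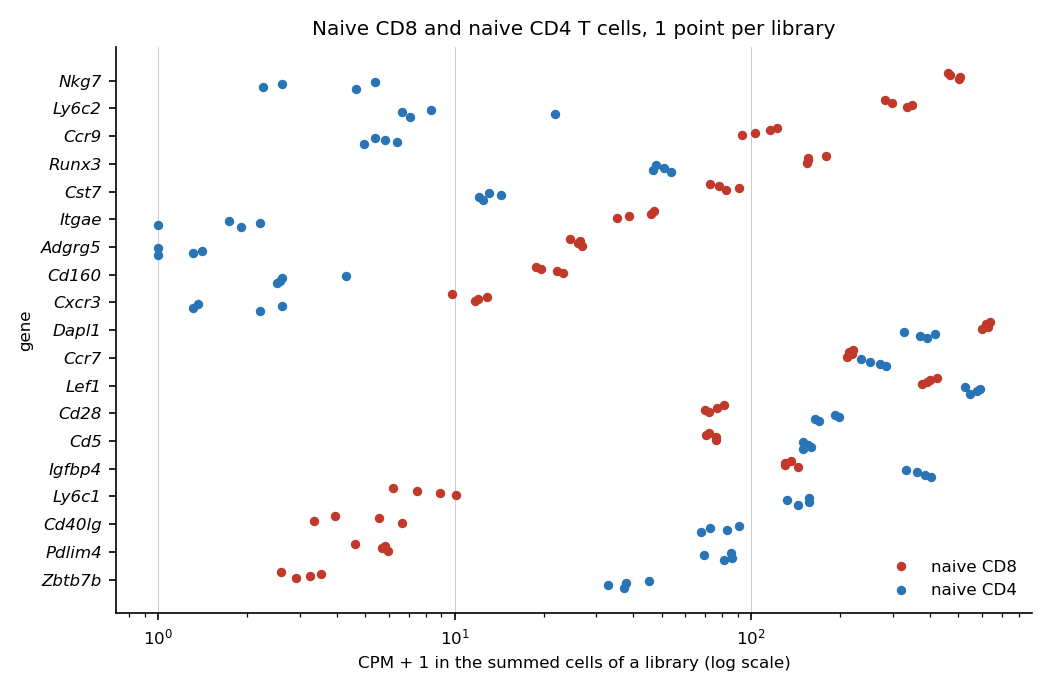
CPM plus 1 on a log scale of 19 genes in naive CD8 cells (red) and naive CD4 cells (blue), with 1 point per library. Nkg7, Ly6c2, Ccr9 and Itgae are higher in naive CD8 cells in every library, Ly6c1, Cd40lg and Zbtb7b are lower, and the Ccr7 values lie close together.

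The memory-like class of 209 CD8 cells was gated by at least 3 of the 6 memory genes, so its contrast with naive CD8 cells was made by the rule and is a description. Of 10174 genes outside the gates, 296 were higher in naive CD8 cells (2.91%) and 251 were lower (2.47%). Memory genes were lower in naive CD8 cells for 19 of 23 tested and higher for 1. Ly6c2 stood at 281, 297, 348 and 336 CPM in naive CD8 cells, against 1545, 1294, 1875 and 1923 CPM in memory-like cells (log2 -2.40), so naive CD8 cells lay between naive CD4 and memory-like CD8 cells in every library. Cd44, the adhesion receptor that defines memory cells, stood at 8.03, 11.3, 7.17 and 9.20 CPM, against 72.6, 57.2, 58.8 and 53.2 CPM in memory-like cells (log2 -2.78). NK receptor genes that the gate did not use were near 0 in naive CD8 cells, with Klra1 at 4 counts against 174 and Klrc2 at 12 against 143.

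Naive-state genes were higher in naive CD8 cells for 6 of 23 tested and lower for none. Igfbp4 stood at 135, 129, 129 and 143 CPM, against 2.02, 34.0, 4.05 and 8.46 CPM in memory-like cells (log2 3.27). Dapl1 stood at 640, 618, 630 and 601 CPM, against 123, 197, 223 and 118 CPM in memory-like cells (log2 1.90). Ramp1, a part of the receptor for the nerve peptide CGRP, stood at 93.7, 93.1, 98.6 and 101 CPM, against 10.1, 14.3, 8.11 and 9.67 CPM in memory-like cells (log2 2.97). Ccr9 and Itgae had log2 ratios of 2.91 and 2.65, and Ccr7 of 1.05. The transcript 1700062C10Rik had 1030 counts in naive CD8 cells and none in memory-like cells, at least 23.6-fold higher with a floor of 3 counts over the class.

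Interferon-gamma genes were higher in naive CD8 cells for 6 of 19 tested and lower for none. They were the GTPases Gbp2, Gbp6, Igtp, Iigp1, Tgtp1 and Tgtp2, which attack the vacuoles of intracellular microbes. Tgtp1 and Tgtp2 are near-identical copies. Iigp1 stood at 33.7, 36.3, 29.7 and 28.3 CPM, against 4.03, 3.57, 2.03 and 1.21 CPM in memory-like cells (log2 2.85). Ifngr2, a chain of the interferon-gamma receptor, stood at 22.7, 25.6, 26.0 and 19.4 CPM, against 0, 3.57, 2.03 and 2.42 CPM in memory-like cells, which had 5 counts in all (log2 2.64). Of 12 tested BCL-2 family genes, which control cell death, 4 were lower in naive CD8 cells and none was higher. They were the survival genes Bcl2 and Bcl2l1 and the death-promoting genes Bbc3 and Pmaip1. Bcl2 stood at 154, 179, 170 and 164 CPM in naive CD8 cells, against 460, 438, 343 and 375 CPM in memory-like cells (log2 -1.28), and Bbc3 had a log2 ratio of -1.49. The memory-like sums rest on 40 to 69 cells per library, and with cells thinned to 1500 UMIs 479 genes were called, of which 356 were higher. Without cells holding B cell RNA the log2 ratio of Ifngr2, with its added count, was -0.033, though the rule still called Ifngr2 higher in naive CD8 cells. In that setting Igfbp4, Klra1, Klrc2, Bcl2, Bbc3 and Pmaip1 fell short of the rule. After thinning, Klra1, Klrc2, Gbp2, Bbc3 and Pmaip1 did.

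Naive CD8 cells were then set side by side between libraries. Of 2209 genes with at least 50 CPM in a library, 26 (1.18%) differed at least 1.5-fold between the highest and the lowest library after 10 CPM was added, and 14 (0.634%) differed at least 2-fold. The 26 became 67 without cells holding B cell RNA, 59 after thinning and 16 without library 1. Type I interferon genes were 7 of the 26 and 4 of the 14, of 24 tested, and their median ratio was 1.27 where that of all tested genes was 1.11. The 4 were Ifit1, Ifit3, Isg15 and Ifi27l2a. Ifit1, Ifit3 and Isg15 had an entry in the promoter table and Ifi27l2a had none. The 3 promoters are shown because they carry the letters bound by the interferon-activated factor ISGF3. The windows run from 250 bases before to 50 after the start of the gene in the RefSeq annotation of GRCm38.p6, 5′ to 3′ on the strand of the gene, and capitals mark GAAA, any 2 bases and GAAA again, or the reverse complement TTTC, any 2 bases and TTTC.
Ifit3, chr19:34583279-34583578, plus strand: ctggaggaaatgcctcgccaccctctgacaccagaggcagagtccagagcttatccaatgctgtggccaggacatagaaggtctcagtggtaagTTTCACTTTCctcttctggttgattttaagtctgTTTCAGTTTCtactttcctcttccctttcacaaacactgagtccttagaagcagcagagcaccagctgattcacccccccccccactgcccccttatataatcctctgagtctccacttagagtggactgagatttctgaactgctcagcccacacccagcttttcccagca
Ifit1, chr19:34640639-34640938, plus strand: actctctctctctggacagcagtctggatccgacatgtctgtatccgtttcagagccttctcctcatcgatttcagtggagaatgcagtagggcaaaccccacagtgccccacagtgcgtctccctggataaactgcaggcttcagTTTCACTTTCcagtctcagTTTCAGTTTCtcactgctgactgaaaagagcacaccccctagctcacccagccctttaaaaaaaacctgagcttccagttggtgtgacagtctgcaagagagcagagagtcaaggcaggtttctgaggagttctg
Isg15, chr4:156200769-156201068, minus strand: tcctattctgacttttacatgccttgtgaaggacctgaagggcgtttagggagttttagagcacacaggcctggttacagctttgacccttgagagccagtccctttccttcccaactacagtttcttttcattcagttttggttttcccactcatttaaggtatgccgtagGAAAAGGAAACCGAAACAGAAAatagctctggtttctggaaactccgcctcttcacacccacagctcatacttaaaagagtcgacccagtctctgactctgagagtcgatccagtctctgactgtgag

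The windows held 2, 2 and 3 such matches, counted on both strands, and the 3 of Isg15 overlap. The motif stood in 1131 of 32851 promoter windows, or 3.44%. Of the 35 type I interferon list genes with a window, 22 held the motif, or 62.9%. The share of 3.44% is of windows and that of 62.9% is of genes. A gene can have several windows, so these shares are not directly comparable. A match is a description of letters and not of binding. The windows of Irf7, Dapl1, Ccr9 and Nkg7 held none.

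Ifit3, which with Ifit1 binds foreign RNA (chr19:34583531-34588731, plus strand), stood at 27.6, 24.04, 78.6 and 79.6 CPM in naive CD8 cells of libraries 1 to 4. Naive CD4 cells had 21.6, 23.4, 64.8 and 46.4 CPM and B cells 33.7, 23.2, 140 and 136 CPM. Isg15, a ubiquitin-like protein, stood at 61.4, 63.9, 140 and 146 CPM in naive CD8 cells. Libraries 3 and 4 were high and libraries 1 and 2 low for both genes in all 3 classes. Ifit1 stood at 37.7, 41.2, 93.6 and 79.2 CPM, and Ifi27l2a, a small interferon-induced protein, at 602, 594, 1114 and 1203 CPM. Irf7, the transcription factor that raises interferon output, stood at 37.2, 41.2, 72.4 and 82.4 CPM. Rtp4, Slfn5 and Ly6a had the same order and were named after their values were seen. Ly6a was under 1.5-fold without the Y-linked cells, at 1.46, and also without library 1, and Slfn5 was without library 3.

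The order stayed in the Xist cells without a Y-linked UMI. Ifit3 there stood at 26.7, 23.8, 76.7 and 83.4 CPM, Isg15 at 60.0, 66.0, 142 and 155 CPM, and Ifi27l2a at 604, 601, 1103 and 1203 CPM in libraries 1 to 4. The 44 listed genes summed to 3906, 3873, 5274 and 5216 CPM in all naive CD8 cells and to 3919, 3890, 5197 and 5234 CPM in the Xist cells. The interferon-gamma list did not share the pattern, with 897, 889, 894 and 850 CPM and none of 8 tested genes past 1.5-fold.

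The interferon difference lay in many cells. Of naive CD8 cells thinned to 1500 UMIs, 39.0%, 38.8%, 53.9% and 54.9% in libraries 1 to 4 carried at least 5 genes of the type I interferon list, and the median cell held 5, 5, 7 and 7 UMIs of the list. In naive CD4 cells the shares were 39.8%, 41.8%, 55.0% and 53.8%, and in B cells 35.6%, 35.8%, 68.3% and 67.8%.

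Other genes varied between libraries in other ways. Hbb-bs, a globin gene of red cells, stood at 151, 769, 6.42 and 19.6 CPM in naive CD8 cells and at 168, 874, 8.21 and 23.03 CPM in naive CD4 cells, while B cells had 898, 705, 16.0 and 551 CPM. The MHC class II genes Cd74, H2-Aa, H2-Ab1 and H2-Eb1 were higher in libraries 1 and 2, with Cd74 at 137, 122, 57.1 and 56.5 CPM. H2-Aa, H2-Ab1 and H2-Eb1 no longer reached the minimum of 50 CPM after thinning or without cells holding B cell RNA, nor did H2-Ab1 and H2-Eb1 without library 1. In naive CD4 cells Cd74 stood at 56.0, 58.5, 51.8 and 116 CPM, another order. Of the Cd74 UMIs of thinned naive CD8 cells, 46.7%, 39.7%, 26.3% and 0% sat in 2, 2, 3 and 0 cells with at least 5 of them. The ribosomal pseudogene Gm10036 stood at 26.2, 20.1, 49.2 and 55.0 CPM, and without the Y-linked and Xist-free cells at between 20.0 and 27.8 CPM, where the highest was 1.26-fold the lowest after 10 CPM was added. The lineage and naive-state lists held no gene past 1.5-fold: of 20 naive-state genes tested, none was, and Dapl1, Lef1, Ccr7 and Klf2 had ratios of 1.06, 1.12, 1.05 and 1.08.

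**Figure D4:**
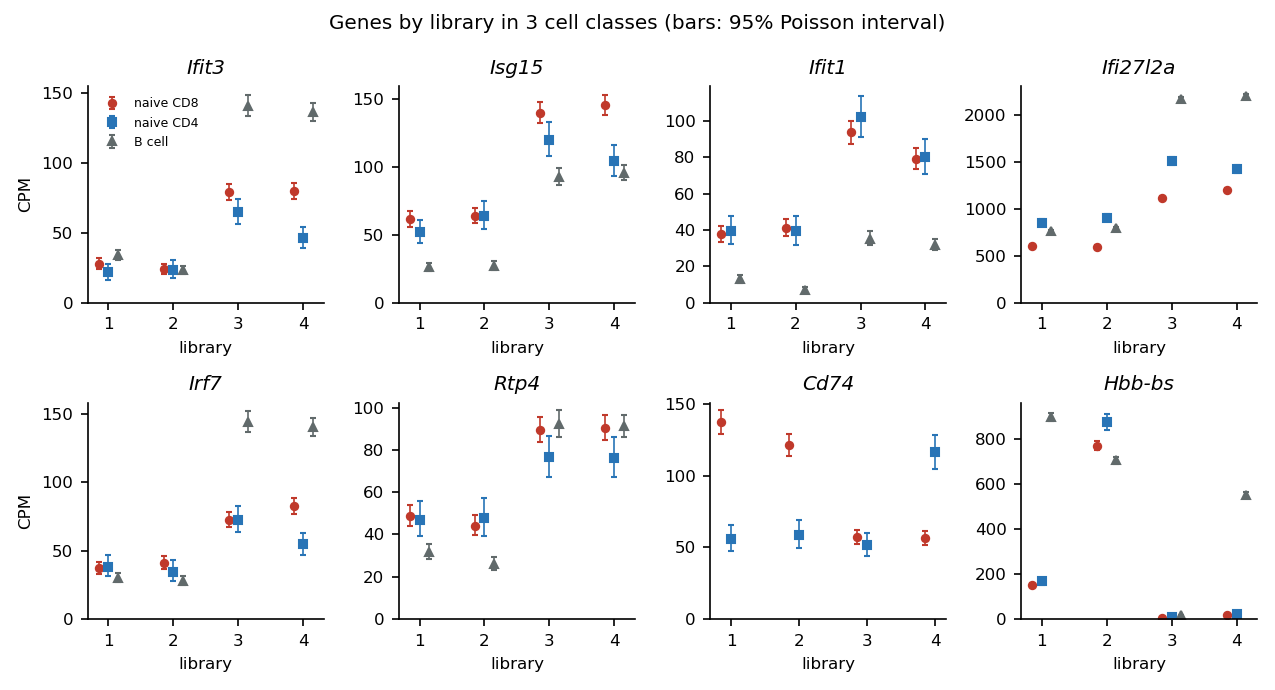
CPM of 8 genes in naive CD8 cells, naive CD4 cells and B cells of each library, with exact Poisson intervals; the panel of Cd74 leaves out B cells. The 6 interferon-stimulated genes are higher in libraries 3 and 4 in each class, and Hbb-bs and Cd74 have other orders.

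Variation among naive CD8 cells was read for the genes that stood out. In cells thinned to 1500 UMIs, the variance of UMIs over their mean, which is about 1 for pure counting noise, had a median of 1.02 over 5069 genes, and 33 genes passed 1.5. At low levels the ratio stays near 1 even where cells differ, so the median does not show that cells are alike. Dapl1 (1.90), Ly6c2 (2.33), Ifi27l2a (2.43) and Isg15 (1.74) were among the 33 genes, as medians over libraries. The calcium-binding genes S100a6 and S100a4 had 5.21 and 5.03. The class II gene Cd74 had a median of 8.35, but its values were 14.1, 15.4, 2.57 and 1.10 in libraries 1 to 4. Trbc1, a constant gene of the receptor beta chain, had 2.83.

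Ly6c2 marked a side of the naive CD8 range. Dapl1 was found in 61.9%, 57.3%, 62.1% and 56.5% of thinned cells with Ly6c2 in libraries 1 to 4, against 40.8%, 40.6%, 38.0% and 40.6% of cells without it. Ccr9 was found in 10.1%, 10.7%, 6.64% and 6.38% of cells with Ly6c2, against 17.9%, 17.3%, 14.4% and 16.0% of cells without it. The intervals did not overlap for Dapl1 in any library. Over the 4 libraries, Nkg7 was found in 56.4% of the 1098 cells with Ly6c2, against 44.1% of the 3756 without it, and Eomes, a transcription factor of memory CD8 cells, in 5.28%, against 1.54%. The correlation of detection across cells was weak, with a median r over libraries of 0.16 for Ly6c2 and Dapl1, the most alike pair for both, and of -0.09 for Ly6c2 and Ccr9. Cells of a library share its depth and preparation, so these are descriptions.

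Interferon genes also moved together within a library. Ifit3 was found in 26.7%, 26.4%, 24.6% and 24.6% of thinned cells with Ifit1 in libraries 1 to 4, against 2.47%, 2.11%, 7.67% and 8.35% of cells without it. Isg15 was found in 26.7%, 26.4%, 37.0% and 35.8% of cells with Ifit1, against 5.76%, 6.42%, 11.7% and 12.8% of cells without it. The cells with Ifit1 numbered 45, 53, 138 and 134. Over the 4 libraries, Ly6c2 was found in 21.9% of cells with Ifit1 and 22.7% of cells without it, close shares. A small set of 41 cells carried S100a4, a gene of effector and memory T cells. Lef1 was found in 6 of them, or 14.6%, against 42.6% of the other cells. Cd44 was found in 7 of them, or 17.1%, against 1.06%, but in 0 of the 8 in library 1. The naive marker Ccr9 was found in 5 of them, or 12.2% (4.08% to 26.2%), against 14.4% of the other cells, close shares.

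**Figure D5:**
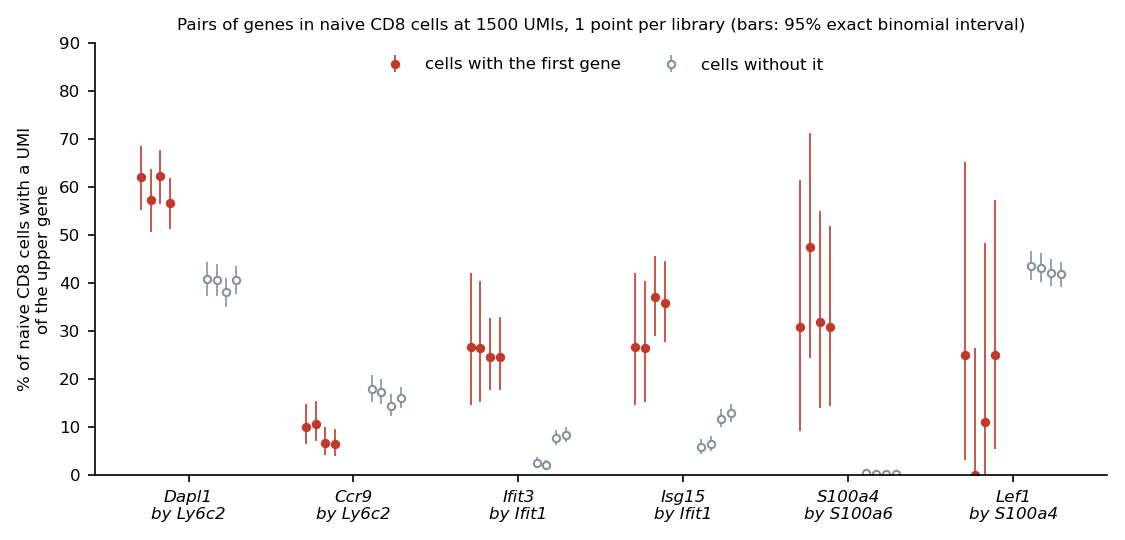
Share of thinned naive CD8 cells with the upper gene among cells with the lower gene (filled) and cells without it (open), 1 point per library with exact binomial intervals. Dapl1 is found in 56.5% to 62.1% of cells with Ly6c2 and 38.0% to 40.8% of cells without it.

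The T cell receptor repertoire could be read in part. A Trav UMI, of an alpha chain variable segment, was found in 28.8% of naive CD8 cells, and a Trbv UMI in 22.8%, against 0.526% and 0.369% of B cells. Trav16 segments took 25.5%, 17.4%, 22.2% and 21.8% of the Trav UMIs of naive CD8 cells in libraries 1 to 4, against 6.59%, 7.84%, 6.49% and 5.93% in naive CD4 cells. Trav14 segments took 13.4%, 13.2%, 13.3% and 11.9% in naive CD8 cells, against 22.1%, 26.9%, 28.3% and 27.2% in naive CD4 cells. Trbv12 segments took 20.2%, 16.9%, 18.2% and 16.3% of Trbv UMIs in naive CD8 cells, against 6.25%, 8.84%, 4.29% and 12.8% in naive CD4 cells. The single segment Trbv29 took 5.11% of 1331 Trbv UMIs in naive CD8 cells, against 0.525% of 571 in naive CD4 cells. Over the 4 libraries the classes did not overlap for the first 3 families. Members of a family are near-identical, so they are counted together, and the 3′ reads cover the variable segments thinly.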

How the data were processed

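The deposited matrix holds raw counts of UMIs per gene and barcode for 31053 genes, not normalised. The authors made these counts with cellranger 5.0.0, per the file headers, and per the submitters' processing notes the genome build was mm10. Filters before deposit are not given in the sources used here. No treated against control comparison was made, as the 4 barcode numbers are not tied to samples.

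Per library, the counts of a class were added up and expressed as CPM. The memory-like, naive CD4 and B cell classes came from fixed gates, B cells from Cd79a and Ms4a1 with no Cd3e. Doublets were scored with Scrublet in scanpy 1.11.5 and kept. The gate, the classes and the 24 gene lists were chosen with earlier results of these data known. Named genes were the 10 called genes with the largest ratio in each direction, up to 3 called genes per list, the 15 genes with the largest ratio between libraries, the 15 with the largest variance over mean, and a fixed set of markers. The Y-linked sets were chosen after seeing the data. The fold rule was checked on simulated counts. Calculations used Python 3.11.15, numpy 2.4.6, pandas 2.3.3, scipy 1.17.1 and matplotlib 3.10.9. Gene positions are those of GENCODE vM21 on the same build, and promoters those of RefSeq on GRCm38.p6. Alternatives covered the cell filter, doublets, the gate, B cell RNA, thinning, centring, count filters, the fold and each library left out.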

Additional observations from a re-analysis of the deposited data

How the results depend on the processing

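Most alternatives kept the balance of higher and lower genes, and the number of calls depended on the choices. The share of naive CD8 cells was 18.6%. It was 20.7% with at least 500 genes and at most 5% mitochondrial UMIs and 19.1% without Scrublet doublets, both of the barcodes then left. Of all kept barcodes it was 11.7% with none of the memory and early genes and 17.6% with at least 2 UMIs of Cd8b1. Naive CD8 cells without Cd79b, Ms4a1 or Ighm were 4.17% of all kept barcodes, among which cells with these genes stayed. With 1 library left out the share of naive CD8 cells was between 17.9% and 19.3%. Against naive CD4 cells 485 genes were called, and 252 were called without cells with B cell RNA, 270 after thinning, 276 with at least 50 counts, 1019 with no count filter, of which 716 were higher, and 252 at a 2-fold rule. Leaving out a library gave 534 to 573, as fewer libraries had to pass. Against memory-like cells 547 were called, of which 296 were higher. With none of the memory and early genes 225 were higher and 265 lower, and after thinning 356 of 479 were higher. The count was 296 with at least 50 counts, 2065 with no filter, of which 1728 were higher, and 311 at a 2-fold rule. Without B cell RNA 671 were called, of which 591 were higher, and leaving out a library gave 697 to 767. Between libraries 26 genes were called, and 67 without B cell RNA, 59 after thinning, 14 at a 2-fold rule, and 16 to 25 with 1 library left out, the lowest without library 1. Without B cell RNA the log2 ratio turned to -0.42 for Il12rb1 against naive CD4 cells, and against memory-like cells to -0.83 for Gm30948, -0.033 for Ifngr2, -1.38 for Cd200, -0.0065 for Egr1, -2.31 for Cd83, -1.41 for H2-T24 and -2.25 for Dntt. After thinning it turned to -1.20 for Cd200, -2.10 for Cd83, -0.079 for H2-T24 and -1.12 for Dntt. The sign is not a reversed call. Without B cell RNA the rule still called Gm30948, Ifngr2, Cd200 and Egr1 higher in naive CD8 cells, and after thinning Cd200, H2-T24 and Dntt. The log2 holds 1 added count per class and library, which weighs more in small sums. The median log2 of all tested genes against memory-like cells was -0.89 without B cell RNA and -0.58 after thinning. The part of the added count was not tested. The alternatives on Y-linked and Xist cells were chosen after seeing the data, and none of them moved a count of calls by over 1.5 times. No paired analysis was possible because no test was run on 4 libraries of unknown group, and the ratios between classes were already taken within each library.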

Other observations

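Naive CD8 cells of the 4 libraries, which the labels put in no group, fell into the same 2 pairs for most type I interferon genes. Of 24 listed genes with at least 50 CPM in a library, 23 had libraries 3 and 4 as their 2 highest, and of all 2209 genes 439 did, or 19.9%. In Xist cells without a Y-linked UMI, 20 of 24 listed genes did, and 429 of 2238 genes, or 19.2%. Libraries 1 and 2 were the 2 highest for 735 of the 2209 genes, or 33.3%, and for none of the 24. These pairs were looked for after the values had been seen.

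The stress-linked transcription factor Jun, of the AP-1 and heat shock list, had the same order. Jun stood at 18.6, 19.6, 36.8 and 37.9 CPM in naive CD8 cells of libraries 1 to 4, and at 34.4, 38.7, 64.8 and 69.1 CPM in naive CD4 cells. In naive CD8 cells Jun was under the 50 CPM needed for the comparison between libraries. Of the 7 tested genes of its list, 0 passed 1.5-fold. Its relative Jund stood at 219, 239, 314 and 302 CPM in naive CD8 cells, and Cd69 at 117, 122, 157 and 148 CPM. The order ran the other way for Rsrp1, a splicing-related gene, at 320, 320, 201 and 208 CPM, and for Il7r at 444, 416, 347 and 347 CPM. In Il7r, Jund and Cd69 the highest library was under 1.5-fold above the lowest after 10 CPM was added. The same 2 libraries, 3 and 4, were those with Y-linked naive CD8 cells, and whether this bears on these values was not tested beyond the Xist cells above.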
